A study of Mus musculus with 2 samples.

Results

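The cells described here are 1658 barcodes of the Gimap5 sph/sph library that carried transcripts of Tnfrsf9 and Angptl4, 12.7% (95% interval 12.1 to 13.2) of the 13094 sph/sph barcodes that passed the quality limits and part of 25398 such barcodes in both libraries. They were chosen by measured values. A barcode had at least 500 detected genes, at least 1000 unique molecular identifiers (UMIs, each counting 1 captured transcript) and no more than 15% mitochondrial UMIs. It also had at least 3 UMIs of Tnfrsf9 and Angptl4 together, at most 4 of Ccl2 and Cxcl10, at most 2 of Aplnr, at most 2 of the arterial genes Sema3g, Hey1 and Gja5, at most 4 of Lyve1 and at most 2 of the cycling genes Mki67, Top2a, Cenpf and Birc5. Of the 3309 sph/sph barcodes that met the minimum for Tnfrsf9 and Angptl4, 1651 were over at least 1 of the other limits, most often that for Ccl2 and Cxcl10 (809 barcodes). The selected cells are called Tnfrsf9/Angptl4 cells below.

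The study profiled single liver endothelial cells, sorted as CD31-positive and negative for CD45 and DAPI, from 1 adult Gimap5 sph/sph mouse and 1 adult Gimap5 sph/+ mouse, both on a C57BL/6 background. The sph allele of Gimap5 is carried by both mice, on 1 chromosome in sph/+ and on both in sph/sph. Gimap5 is a GTPase of lymphocytes and endothelium. Cells of each mouse were processed as 1 droplet library (10x Genomics 3' chemistry, v3). With 1 mouse a genotype there is no p-value or standard error, and genotype cannot be told apart from library. Bracketed ranges are exact 95% intervals that cover counting error only, since UMIs of 1 mouse say nothing of the spread between mice. The 2 libraries shared 30 barcode sequences.

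In sprouting vessels, tip cells lead the new branch and stalk cells follow. Vascular endothelial growth factor (VEGF) acts through Kdr and Flt1, tip cells release apelin and angiopoietin-2, and the growing sprout lays down a basement membrane of type IV collagen, laminin, nidogen and perlecan. Tnfrsf9 encodes 4-1BB, a costimulatory receptor best known from activated T cells, and Angptl4 encodes a secreted inhibitor of lipoprotein lipase that is induced by fatty acids and by low oxygen. The healthy liver sinusoid is lined by fenestrated endothelium that makes little basement membrane.

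As a group, these cells had high levels of the vessel growth factors Vegfa and Pgf, of apelin, of adrenomedullin, of basement membrane genes and of several hypoxia and glycolysis genes, next to sph/sph endothelial cells with neither defining transcript. Genes of sinusoidal, venous and lymphatic endothelium were mostly lower, though the selection itself limited Lyve1. These differences were mostly smaller among cells of like clusters. The markers of the angiogenic label, Vegfa, Apln, Lamb1 and Nid2, were each above the comparison cells. They came with the label, so their levels are no test of it. With matched comparison cells weighted to the same clusters, their log2 ratios were 0.52, 0.84, 0.10 and 0.19. The cells did not form 1 separate group, however, and lay along a range of Tnfrsf9 and Angptl4 counts and in 18 of 21 clusters. All but 2 of the 1658 cells (1656) had a UMI of Pecam1 or Cdh5, the markers of any endothelium.

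In the Tnfrsf9/Angptl4 cells Tnfrsf9 stood at 878 per 1000000 UMIs (CPM; 857 to 900) and Angptl4 at 447 CPM (432 to 462). Single cells held a median of 3 Tnfrsf9 UMIs, with quartiles of 2 and 5 and a highest count of 29. For Angptl4 the median was 1, the quartiles were 0 and 3, and the highest count was 19. Both transcripts were found in 1017 of the cells, Tnfrsf9 alone in 519 and Angptl4 alone in 122. The selected cells held 38.6% of all Tnfrsf9 UMIs and 37.3% of all Angptl4 UMIs of the kept sph/sph barcodes. In the sph/+ library only 1 Tnfrsf9 UMI and 76 Angptl4 UMIs were found among 12304 kept barcodes. The same rule selected 3 barcodes there, a share of 0.0244% (0.00503 to 0.0712), which was too few to describe.

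Promoters of Tnfrsf9, Vegfa, Ankrd37 and Slc2a1 are shown, with 2 motifs searched on both strands. The motifs are ACGTG, the core of the hypoxia response element (a CACGTG E-box also holds it), and TGANTCA, bound by AP-1 factors. The searched windows of Apln, Lamb1, Pgf, Adm and Ntrk2 held neither motif and are not printed. Each window is the 250 bases before a transcription start in RefSeq (GRCm38.p6), given 5′ to 3′ on the gene's strand, with motif matches in capitals. Tnfrsf9 has a pair of starts in the table, and only the downstream window, chr4:150927749-150927998 on the plus strand, held an AP-1 match, 15 bases before the start. The upstream Vegfa window, chr17:46032378-46032627 on the minus strand, held neither motif. The downstream Vegfa window, chr17:46025164-46025413, held ACGTG 211 bases before its start. That window lies inside the gene and is not printed. Ankrd37, an ankyrin repeat gene induced by low oxygen, held ACGTG 241 and 6 bases before its start in chr8:45999851-46000100, minus strand. Slc2a1, the glucose transporter GLUT1, held it 36 bases before its start in chr4:119108495-119108744, plus strand.
Tnfrsf9: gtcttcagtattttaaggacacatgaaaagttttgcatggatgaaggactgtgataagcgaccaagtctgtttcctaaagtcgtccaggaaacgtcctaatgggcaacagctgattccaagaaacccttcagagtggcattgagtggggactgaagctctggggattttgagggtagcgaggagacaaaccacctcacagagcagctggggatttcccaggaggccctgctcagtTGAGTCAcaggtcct
Vegfa: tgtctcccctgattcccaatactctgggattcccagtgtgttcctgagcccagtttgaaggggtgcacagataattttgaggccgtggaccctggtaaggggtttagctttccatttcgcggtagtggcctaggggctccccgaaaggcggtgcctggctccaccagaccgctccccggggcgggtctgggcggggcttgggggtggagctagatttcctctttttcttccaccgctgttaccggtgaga
Ankrd37: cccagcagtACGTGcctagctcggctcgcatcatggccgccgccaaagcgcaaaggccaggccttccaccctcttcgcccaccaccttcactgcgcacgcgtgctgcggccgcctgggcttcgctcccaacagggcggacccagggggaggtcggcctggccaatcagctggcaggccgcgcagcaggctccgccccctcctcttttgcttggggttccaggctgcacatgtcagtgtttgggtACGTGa
Slc2a1: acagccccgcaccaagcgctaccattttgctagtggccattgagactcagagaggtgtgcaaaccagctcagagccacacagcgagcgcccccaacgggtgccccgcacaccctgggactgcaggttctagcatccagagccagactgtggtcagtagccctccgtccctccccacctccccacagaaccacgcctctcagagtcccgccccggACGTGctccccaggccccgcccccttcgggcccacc

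Over all 27025 genes with a window, 18.5% held ACGTG in at least 1 window and 7.82% held the AP-1 motif. By window, the shares were 16.6% and 6.75% of 32851. The windows of the 13 genes of the hypoxia and glycolysis list that stood at least 1.5-fold higher in the selected cells than in the matched reference were searched, and 7 of the 13 genes (53.8%) held ACGTG. Vegfa was among the 7 through its downstream window only. None of the 13 held the AP-1 motif. Of the 15 genes highest against the matched reference, 11 had windows. ACGTG was in 3 of these 11 (27.3%) and the AP-1 motif in 2 (18.2%). Of the 6 marker genes, 4 had windows. Vegfa held ACGTG and Tnfrsf9 the AP-1 motif, each in its downstream window only. A match is a run of letters and not a measured binding site.

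Gene levels were compared with 2 references from the same library. The first, here the reference, was the 6018 sph/sph barcodes with a UMI of Pecam1 or Cdh5 and none of Tnfrsf9 or Angptl4. The second, the matched reference, was the 3218 of these that also met the limits on Ccl2, Cxcl10, Aplnr, arterial, Lyve1 and cycling transcripts. The median depth was 4172.5 UMIs in the selected cells, 3698.5 in the reference and 3047 in the matched reference. Because a minimum count favours deep cells, shares of cells with a transcript are given after each cell was thinned to 2000 UMIs, which left out 45 selected, 644 reference and 531 matched reference cells. Because the cells were selected on transcripts of the same library, each ratio is a description. Among 7028 genes that reached 20 CPM in either group, 114 were at least 2-fold higher in the selected cells than in the reference and 348 at least 2-fold lower. Against the matched reference, 67 of 6939 genes were higher and 198 lower. At 1.5-fold, the limit used for gene lists, 4.98% of all measured genes were higher than the reference and 8.07% lower. For the matched reference these shares were 3.17% and 5.71%. All list counts below stand beside these shares.

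Vegfa, the main VEGF ligand, lies at chr17:46016993-46032369 (GRCm38, minus strand). Its level was 288 CPM (276 to 301) in the Tnfrsf9/Angptl4 cells, 46.2 CPM in the reference and 69.0 CPM in the matched reference. The ratio was 6.24 (5.83 to 6.69) to the reference and 4.18 (3.85 to 4.54) to the matched reference. At equal depth a Vegfa transcript was found in 38.7% (36.4 to 41.2) of selected cells, 9.40% of reference cells and 11.1% of matched reference cells, so a majority of the selected cells showed none at that depth. Without thinning, the shares were 56.3% and 14.3% in the selected and reference cells. As a guide to free RNA, 1 of the 24 sph/sph barcodes with no endothelial marker (4.17%) had a Vegfa UMI at equal depth.

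Pgf, the placental growth factor that binds Flt1, was at 55.3 CPM (50.1 to 60.9) in the selected cells against 5.70 and 6.06 CPM in the 2 references. These are ratios of 9.69 (8.07 to 11.7) and 9.13 (7.05 to 12.0). Pgf was found in 6.39% of selected cells at equal depth and in 0.968% of matched reference cells, so most of the cells showed no Pgf transcript. The VEGF receptors differed less. Flt1, which also serves as a decoy for VEGF, was at 934 CPM and 2.22-fold (2.15 to 2.28) above the reference. Kdr, the signalling receptor, was at 1888 CPM and 1.59-fold (1.56 to 1.62) above the reference and 1.26-fold (1.23 to 1.29) above the matched reference, but with the matched reference weighted to the selected cells' clusters its log2 ratio turned to -0.07. Under the same cluster weighting Flt1 had a log2 ratio of 0.13. Among the other VEGF genes, the lymphatic receptor Flt4 had a log2 ratio to the reference of -1.47 (0.10 with the cluster weighting) and the ligand Vegfb of -0.99. The ratio of Nrp1, a coreceptor, was 0.68 on the log2 scale and turned to -0.18 with that weighting. Of the 8 measured VEGF genes, 5 were at least 1.5-fold higher than the reference and 2 lower. The same thresholds held for 4.98% of all measured genes (higher) and 8.07% (lower). Against the matched reference, 3 of 7 VEGF genes were higher and 0 lower, beside 3.17% of all measured genes higher and 5.71% lower.

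Apelin, a peptide ligand released by tip cells (Apln, chrX:48025146-48034853, minus strand), was at 722 CPM (703 to 742) in the Tnfrsf9/Angptl4 cells. It was at 182 CPM in the reference and 242 CPM in the matched reference, ratios of 3.97 (3.82 to 4.12) and 2.99 (2.85 to 3.13). At equal depth 54.4% of selected cells and 27.2% of matched reference cells had an Apln transcript. Its receptor Aplnr, held at or under 2 UMIs by the selection, stood at 105 CPM. The 2 laminin and nidogen markers were nearer to the references. Lamb1, the laminin beta-1 chain (chr12:31265234-31329644, plus strand), was at 489 CPM against 212 and 251 CPM, and its ratio to the matched reference was 1.95 (1.86 to 2.05). Nid2, nidogen-2 (chr14:19751265-19811787, plus strand), was at 226 CPM against 89.1 and 108 CPM, a ratio to the matched reference of 2.09 (1.94 to 2.25). Lamb1 was found at equal depth in 57.3% of selected cells and 35.2% of matched reference cells, and Nid2 in 32.9% and 18.3%.

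**Figure D1:**
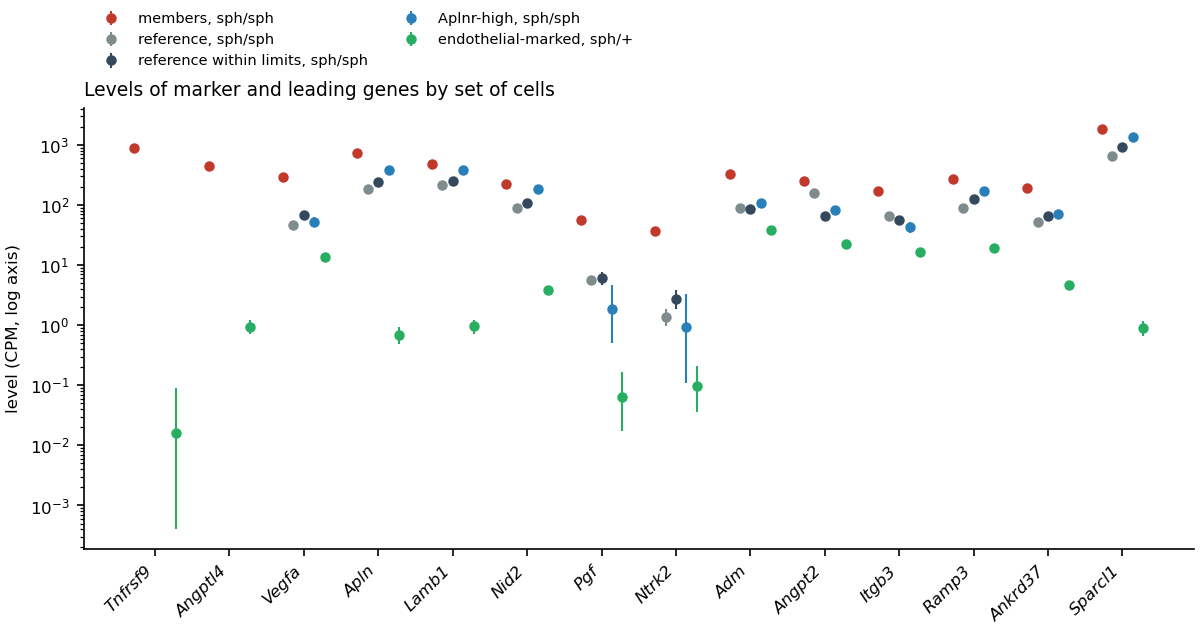
Levels of 14 genes in CPM on a log axis, with exact Poisson 95% intervals, in the Tnfrsf9/Angptl4 cells (members), the reference, the matched reference (reference within limits), Aplnr-high cells and sph/+ endothelial-marked cells. Points at 0 cannot be drawn on this axis, so Tnfrsf9 and Angptl4, at 0 by definition in 3 of the sets, have no point there. The red members' points lie above all other sets for each gene, from 36.7 CPM for Ntrk2 to 1875 CPM for Sparcl1.

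Tip cell genes were the list with the most members above the reference. Of 28 measured genes, 24 were at least 1.5-fold higher than the reference and 0 lower, with a median log2 ratio of 0.94 beside -0.03 over all measured genes. Against the matched reference, 18 were higher and 0 lower, with a median of 0.68. The list holds Apln, Lamb1 and Nid2, which are markers of the label, and it was chosen with results of these data known. Adm, adrenomedullin, a vasodilator peptide, was at 328 CPM (315 to 341) against 90.3 and 85.4 CPM in the references, and Ramp3, part of its receptor, was at 272 CPM against 88.1 and 124 CPM. Esm1, endocan, was 2.96-fold (2.50 to 3.53) and Kcne3, a potassium channel subunit, 3.52-fold (2.86 to 4.34) above the matched reference, while the cluster weighting left Esm1 at 54.2 CPM against 47.5 CPM (log2 0.19). Unc5b, a netrin receptor, was at 216 CPM against 97.8 and 114 CPM, although its log2 ratio turned to -0.14 when the matched reference was weighted by cluster.

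Angpt2, angiopoietin-2, which loosens vessels by blocking the receptor Tek, depended on the reference. It was at 254 CPM (242.5 to 265.5) in the selected cells, at 157 CPM in the reference and at 66.3 CPM in the matched reference, ratios of 1.62 and 3.83 (3.52 to 4.18). Tek itself was at 86.6 CPM against 121 and 136 CPM. In the angiopoietin and Tie list, which also holds Tie1 and the phosphatase gene Ptprb, 1 of 5 genes outside the selection rule was higher than the reference and 0 were lower. Itgb3, the integrin beta-3 chain of sprouting endothelium, was at 172 CPM against 65.9 and 57.0 CPM. Of 11 measured integrin genes, 2 were at least 1.5-fold higher than the reference, Itgb3 among them, and 2 lower, Itgb4 and Itga3. Against the matched reference 1 of 10 was higher and 1 lower. Beside these small counts, 4.98% of all measured genes were higher than the reference and 8.07% lower. The shares were 3.17% and 5.71% against the matched reference.

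Genes of the basement membrane were mixed. Of 20 measured, 9 were at least 1.5-fold higher than the reference and 4 lower, with a median log2 ratio of 0.48. Among all measured genes the shares were 4.98% and 8.07%. The higher genes included Col4a1, a chain of type IV collagen, at 3905 CPM against 2015 CPM, and Hspg2, perlecan, at 1554 CPM against 757 CPM. Sparc, which binds collagen, was at 8454 CPM against 3591 CPM and its relative Sparcl1 at 1875 CPM against 666 CPM. Col18a1, the source of endostatin, was 2.15-fold (2.06 to 2.24) higher. Among the lower genes were the fibronectin gene Fn1, with a log2 ratio of -3.80, and the elastin gene Eln, at -3.51. Against the matched reference the counts were also 9 and 4, and Fn1 had a log2 ratio of -0.88. With the matched reference weighted by cluster, Fn1 was at 15.9 against 13.8 CPM and Eln at 6.62 against 7.34 CPM. Of 10 measured genes for collagen processing, 3 were higher and 0 lower, among them the lysyl hydroxylase Plod2 at 48.0 CPM against 22.1 CPM, whose log2 ratio turned to -0.0335 under the cluster weighting.

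Hypoxia and glycolysis genes formed the next group. Of 24 measured genes, 10 were at least 1.5-fold higher than the reference and 1 lower (Ndrg1, log2 -1.49). Against the matched reference 13 were higher and 0 lower (median log2 ratio 0.62). The shares of all measured genes were 4.98% higher and 8.07% lower, and 3.17% and 5.71% against the matched reference. The list includes Vegfa and Adm, given above. Ankrd37 was at 195 CPM (185 to 205) against 51.4 and 64.7 CPM, and Slc2a1 was at 64.0 CPM (58.4 to 70.0) against 23.2 and 22.98 CPM. Both have the ACGTG runs shown in capitals above. Pfkfb3, which drives glycolysis in sprouting endothelium, was at 298 CPM against 147 and 175 CPM, the pyruvate kinase gene Pkm at 972 CPM against 482 and 514 CPM, and the mitophagy gene Bnip3 at 54.2 CPM against 22.1 and 27.7 CPM. Pgk1, an enzyme of lower glycolysis, was at 269 CPM against 187 and 125 CPM, so that only the matched reference put it past 1.5-fold. Hilpda, a lipid droplet gene induced by low oxygen that was not in the list, was at 129 CPM against 46.4 and 39.6 CPM. The transcription factor genes Hif1a and Epas1, which drive the hypoxia response, had log2 ratios to the reference of 0.46 and 0.38. With the matched reference weighted by cluster, these became 0.17 and -0.03. Pfkfb3 then stood at 0.13, Pkm at 0.68 and Pgk1 at 1.04. Other genes of the list fell below 0, with Pdk1 at -0.38, Ndrg1 at -0.35, Egln1 at -0.26 and Kdm3a at -0.22. The list median was above 0 in all settings run, from 0.47 to 0.62.

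Genes with the highest ratios beyond these lists included some that few cells carried. Ntrk2, the receptor for brain-derived neurotrophic factor, had the highest ratio to the reference (log2 4.0), with 36.7 CPM (32.5 to 41.4) against 1.36 CPM, and was found in 5.33% of selected cells at equal depth. Its ratio was 26.9 (19.2 to 38.7), and 13.3 (9.16 to 19.97) against the matched reference. Ankrd37, Adm, Apln, Vegfa and Pgf, described above, were among the 15 highest, with Aoc3, the amine oxidase VAP-1, at log2 1.90, the collagen gene Col27a1 at 1.89, the homeobox gene Tlx1 at 1.88 and the leukotriene receptor Cysltr1 at 1.92. Also among them were Mctp1 at 2.02, Celf4 at 1.94, Xylt1 at 1.93, Enpp6 at 1.85 and Cd109 at 1.77. S100a6, a calcium-binding protein, stood at 1008 CPM against 279 CPM in the matched reference, with a log2 ratio of 1.85.

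The other receptors of the TNF family stood near the reference. Of 9 measured genes of that list outside the selection rule, 1 was at least 1.5-fold higher than the reference and 0 lower. That gene was Tnfrsf26, at 23.6 CPM (20.3 to 27.4) against 10.7 CPM, a ratio of 2.20 (1.82 to 2.66). Its log2 ratio was -0.035 once the matched reference was weighted by cluster. Tnfrsf1a, the main TNF receptor, was at 363 CPM against 277 CPM, and Cd274, the ligand PD-L1, at 169 CPM against 116 CPM, though Cd274 turned to a log2 ratio of -0.26 with the cluster weighting. Tnfsf9, the ligand of 4-1BB, was near 0 in the selected cells and both references (0.80, 0.70 and 0.71 CPM). Of 21 measured NF-kB response genes, 1 was higher than the reference and 2 lower, with a median log2 ratio of -0.08. Over all measured genes, 4.98% were higher and 8.07% lower, so these counts were near the shares of all genes. The higher gene was Cx3cl1, fractalkine, at 92.6 CPM against 37.2 CPM. The adhesion genes Vcam1 and Selp, at 151 and 2.94 CPM against 349 and 57.5 CPM, had the lowest ratios of that list, at log2 -1.21 and -3.89, and both encode proteins that hold leukocytes on the vessel wall. Under the cluster weighting Selp was at 2.97 against 3.30 CPM, and Vcam1 had a log2 ratio of -0.56.

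Antigen presentation and interferon genes had median log2 ratios of 0.29 and 0.27 to the reference and 0.19 and 0.08 to the matched reference. With the matched reference weighted by cluster the medians were 0.03 and -0.16, so the interferon list changed sign. Of 21 measured antigen presentation genes, 7 were at least 1.5-fold higher than the reference and 0 lower, and those 7 were genes of the class II pathway, H2-Aa, H2-Ab1, H2-Eb1, H2-DMa, H2-DMb1, Ciita and Cd74. Ciita, the class II transactivator, turned to a log2 ratio of -0.27 with the cluster weighting, and H2-Ab1 to -0.05. Cd74, the invariant chain, was at 3406 CPM against 2020 and 2440 CPM. Against the matched reference 1 gene was higher, H2-DMa, a peptide loading chain, at 240 CPM against 152 CPM. Beside 4.98% of all measured genes higher and 8.07% lower, 4 of 25 measured interferon response genes were higher than the reference and 1 lower. Among them Cxcl9, a T cell chemokine, was at 3538 CPM against 1845 and 2255 CPM, and Gbp2, a GTPase of cell defence, at 1194 CPM against 686 and 806 CPM. Cxcl12, the ligand of Cxcr4, was at 995 CPM (973 to 1018) against 392.1 and 551 CPM, and at equal levels under the cluster weighting (1003 and 1002 CPM).

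Lipid handling genes did not move as 1 block. Of 19 measured, 5 were at least 1.5-fold higher than the reference and 1 lower, and against the matched reference 2 were higher and 1 lower. All measured genes had 4.98% higher and 8.07% lower, and 3.17% and 5.71% against the matched reference. Plin2, a coat protein of lipid droplets, was at 294 CPM against 167 and 188 CPM, and the fatty acid transporter Cd36 at 1661 CPM against 872 and 1222 CPM. Gpihbp1, which anchors lipoprotein lipase on capillaries, was at 2492 CPM against 1520 and 1895 CPM. Lpl, the lipase that Angptl4 inhibits, was lower, at 289 CPM (277 to 301.5) against 454 and 500 CPM, ratios of 0.637 (0.609 to 0.667) and 0.579 (0.550 to 0.608).

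Genes of sinusoidal, venous and lymphatic endothelium were mostly lower in the selected cells. Of 14 measured sinusoidal (LSEC) genes, 0 were higher and 13 at least 1.5-fold lower than the reference, with a median log2 ratio of -2.28. The shares of all measured genes were 4.98% higher and 8.07% lower. Ehd3, an endocytic protein of sinusoidal cells, was at 27.4 CPM (23.8 to 31.4) against 323 and 488 CPM, 11.8-fold and 17.8-fold lower, and the cluster weighting narrowed this to 27.6 against 73.5 CPM. That weighting also moved the median of the sinusoidal list from -2.62 to -0.35 and that of the venous list from -1.61 to -0.34. Maf, a transcription factor of sinusoidal identity, was at 17.0 CPM against 153 and 156 CPM, and the lectin gene Clec4g at 13.9 CPM against 99.2 and 157 CPM. Stab1, a scavenger receptor, was at 427 CPM, below the reference (631 CPM) and above the matched reference (347 CPM). The venous list had 9 of 11 measured genes lower than the reference and 0 higher, led by Selp, Plvap and Lrg1. Vwf, among the 9, had a log2 ratio of -1.48 that turned to 0.97 with the cluster weighting. Plvap, the diaphragm protein of fenestrae and caveolae, was at 28.3 CPM against 378 and 227 CPM, and the venous factor Nr2f2 at 26.5 CPM against 238 and 157 CPM. The lymphatic list had 7 of 7 lower than the reference and 3 of 5 lower than the matched reference. The rule limited Lyve1 in the selected cells but not in the reference. Cluster 1, with lymphatic-type genes, held 903 reference cells and 9 selected cells. Under the cluster weighting Prox1 was at 8.24 against 8.14 CPM, Fgl2 at 17.8 against 17.7 CPM and Mmrn1 at 13.2 against 17.5 CPM.

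**Figure D2:**
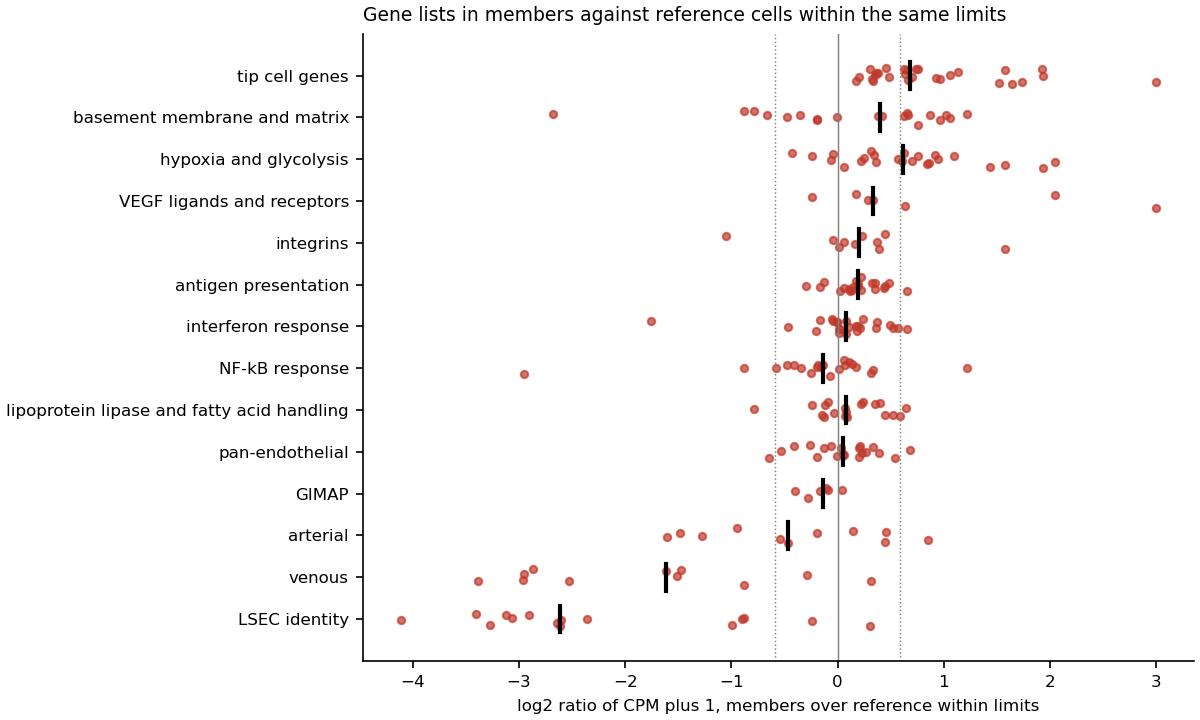
Log2 ratio of CPM (1 CPM added to both) in the Tnfrsf9/Angptl4 cells over the matched reference, 1 point per measured gene outside the rule, by gene list. Bars mark list medians and dotted lines 1.5-fold. Tip cell genes have a median of 0.68 with no gene below 0, and sinusoidal (LSEC) genes a median of -2.62.

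Capillary and arterial lists were mixed. Of 22 measured continuous capillary genes, 9 were higher than the reference and 3 lower, beside 4.98% and 8.07% of all measured genes. Aqp1, a water channel, was among the lower ones, at 153 CPM against 761 CPM, and Cd34, a surface sialomucin, was at 874 CPM against 593 and 686 CPM. The arterial list, whose genes Sema3g, Hey1 and Gja5 the rule limited, had 3 of 13 other genes higher and 7 lower, the 3 being Dll4, Jag2 and Cxcl12. The matched reference left 1 of 11 higher and 4 lower, and under the cluster weighting Jag2 turned to a log2 ratio of -0.29. Dll4, the Notch ligand of tip cells, had a log2 ratio of 0.64 and Jag1, the opposing ligand, of -2.17. The 20 measured pan-endothelial genes had 4 higher and 0 lower. Of 6 measured GIMAP genes, 0 were past 1.5-fold, and Gimap5 was at 92.98 CPM (86.2 to 100.2) against 105 and 113 CPM. Genes with some of the lowest ratios to the reference, leaving out those the rule used, included Ccl7 (log2 -5.36), a chemokine gene next to Ccl2, Igfbp5 (-5.26), H19 (-5.25) and the lymphatic gene Reln (-4.74).

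Markers of other liver cells were present at different levels. Hepatocyte markers summed to 386 CPM in the selected cells, 366 CPM in the reference and 580 CPM in the matched reference, with Alb at 196 CPM against 197 CPM in the reference. Erythroid markers summed to 1026, 2215 and 3481 CPM in the same order. In the selected cells 10 cells held 88.3% of the UMIs of the haemoglobin gene Hbb-bs, 1344 of 6113 in 1 cell. Stellate and fibroblast markers summed to 58.4, 405 and 144 CPM, with Pdgfrb at 0 in the selected cells. Myeloid markers summed to 64.0, 44.3 and 32.1 CPM. Only 2 of the 8 myeloid markers were measured, and the level of Lyz2 came from 342 UMIs in 13 cells, 181 of them in 1 cell. T and NK cell markers summed to 0.94 CPM, B cell markers to 0.27 CPM and cholangiocyte markers to 12.6 CPM, with Epcam at 0. Ptprc, which encodes the CD45 excluded by the sort, was at 0.80 CPM. The part of these transcripts in the results was not tested.

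Levels followed the number of Tnfrsf9 and Angptl4 UMIs in a cell. Apln was at 242 CPM in the matched reference, 440 CPM in the 1907 cells with 1 to 2 UMIs, 582 CPM in the 791 members with 3 to 4, 780 CPM in the 652 with 5 to 9, and 938 CPM (885 to 993) in the 215 with 10 or more. Vegfa was at 69.0, 157, 244, 301 and 369 CPM (336 to 404) over the same steps, and Pgf at 6.06, 18.2, 30.5, 45.8 and 141 CPM (121 to 163). Both therefore had their highest level in the cells with most Tnfrsf9 and Angptl4. Adm went from 85.4 to 158, 245, 363 and 454 CPM. Lamb1 levelled off, at 251, 405, 469, 499 and 516 CPM, as did Nid2, at 108, 175, 225, 228 and 226 CPM. Lpl ran the other way, at 500, 468, 334, 291 and 170 CPM, and so did Ehd3, from 488 to 92.7, 45.03, 19.6 and 1.59 CPM. Median depth differed along the same steps, from 3047 UMIs in the matched reference to 3287, 3624, 4432.5 and 5540.

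**Figure D3:**
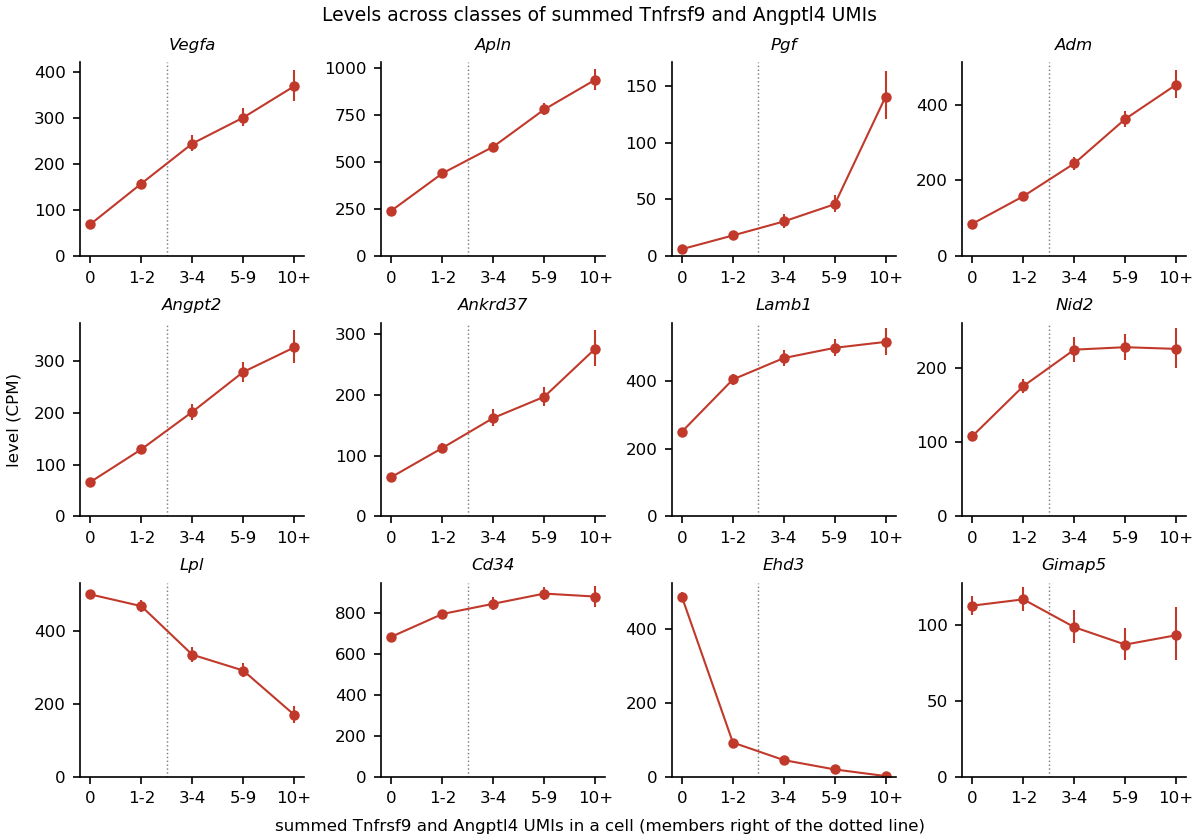
Level in CPM (exact Poisson 95% intervals) of 12 genes in sph/sph cells within the limits, by the summed Tnfrsf9 and Angptl4 UMIs of the cell, with the matched reference at 0 and the selected cells right of the dotted line. Pgf goes from 6.06 to 141 CPM across the steps and Ehd3 from 488 to 1.59 CPM, while Nid2 stays near 226 CPM within the selected cells.

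The threshold of 3 UMIs fell inside this range and not at a gap. Just outside it, 680 cells with 2 UMIs had Apln at 508 CPM (480 to 537) and Vegfa at 206 CPM (189 to 225). Just inside, 460 cells with 3 UMIs had Apln at 530 CPM (497 to 565) and Vegfa at 236 CPM (214 to 260). Between the selected cells and all cells with 1 to 2 UMIs, 12 of 6753 measured genes were at least 2-fold higher and 32 lower.

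Cells with Tnfrsf9 alone and cells with Angptl4 alone were unlike in several genes, and they also lay in different clusters. Of the 122 Angptl4-alone cells, 28 were in cluster 8, led by Gdf15 and Pgf, 15 in cluster 5, led by Sprr2b with Clec4g and Ehd3, and 7 in cluster 1, which had lymphatic-type genes, against 11, 6 and 0 of the 519 Tnfrsf9-alone cells. Vegfa was at 322 CPM (298 to 347) in the 519 cells with Tnfrsf9 alone, 294 CPM (279 to 310) in the 1017 with both and 127 CPM (100 to 159) in the 122 with Angptl4 alone. Apln was highest with both transcripts, at 872 CPM (846 to 899), against 425 CPM with Tnfrsf9 alone and 570 CPM with Angptl4 alone. Pgf was also highest with both, at 72.8 CPM (65.3 to 80.8), against 17.6 and 47.9 CPM. At a median of 3 Tnfrsf9 and 1 Angptl4 UMIs a cell, a count of 0 can be a missed transcript. Apln and Pgf also rose with the summed count above, and these subsets were not matched for that sum. The venous glycoprotein gene Vwf was at 199, 74.9 and 28.1 CPM in the order Tnfrsf9 alone, both, Angptl4 alone, and Cxcl12 at 1291, 920 and 565 CPM. Plin2 ran the other way, at 225, 315 and 362 CPM, and so did Vcam1, at 107, 147 and 334 CPM. Angptl4-alone cells also had Ehd3 at 126 CPM (98.98 to 157), against 25.3 CPM with Tnfrsf9 alone. Over all selected cells, 10 cells held 48.8% of the Ehd3 UMIs. Median depths were 3684, 4349 and 4351.5 UMIs.

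**Figure D4:**
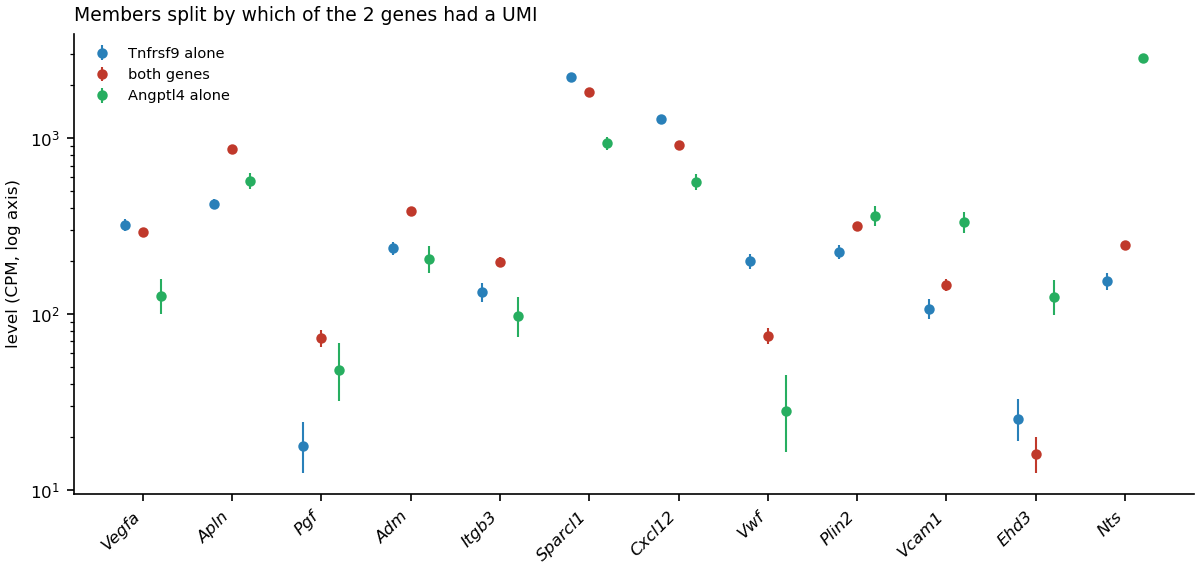
Level in CPM on a log axis, with exact Poisson 95% intervals, of 12 genes in the Tnfrsf9/Angptl4 cells with Tnfrsf9 alone, with both transcripts and with Angptl4 alone. Apln and Pgf are highest with both transcripts (872 and 72.8 CPM), and Nts is highest with Angptl4 alone (2855 CPM).

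Part of the Angptl4-alone pattern came from few cells. Nts, neurotensin, a peptide found in lymphatic endothelium, was at 2855 CPM there, against 154 CPM with Tnfrsf9 alone and 246 CPM with both, and 794 of its 1727 UMIs there lay in 1 cell. Dcn, the proteoglycan decorin of fibroblasts, was at 537 CPM against 3.81 CPM with Tnfrsf9 alone, but its 378 UMIs among all selected cells lay in 28 cells. Mgp, matrix Gla protein, had 235 UMIs in 16 cells, 105 of them in 1, and Fst, follistatin, had 102 UMIs in 10 cells. In the other direction, Rspo3, a Wnt enhancer of central veins, was at 45.3 CPM with Tnfrsf9 alone and 0 with Angptl4 alone, and its 108 UMIs lay in 7 cells. Aoc3 was at 71.0 CPM with Tnfrsf9 alone and 1.65 CPM with Angptl4 alone.

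Clustering of all kept sph/sph barcodes, with the genes of the rule left out, spread the selected cells over 18 of 21 clusters. Cluster 3 held most, 400 cells or 24.1% (22.1 to 26.3), and these were 34.8% of its 1149 cells, so most of the cluster was outside the selection. Its leading genes, Vegfa, Tnfrsf9, Celf4 and Ramp3 among them, included genes given above. Cluster 4, led by the tip cell genes Esm1 and Kcne3, held 309 cells (18.6%), 27.7% of its 1114 cells. Cluster 8, led by the stress cytokine Gdf15 and by Pgf, held 161, and cluster 7, led by Igfbp3 and Stc1, held 159. Cluster 0, led by the capillary enzyme gene Car4 and by Lpl, held 158, and cluster 2, led by Aplnr and Col15a1, held 149. A further 68 cells were in cluster 10, where hepatocyte transcripts led and Alb stood at 1513 CPM over all cells of the cluster.

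**Figure D5:**
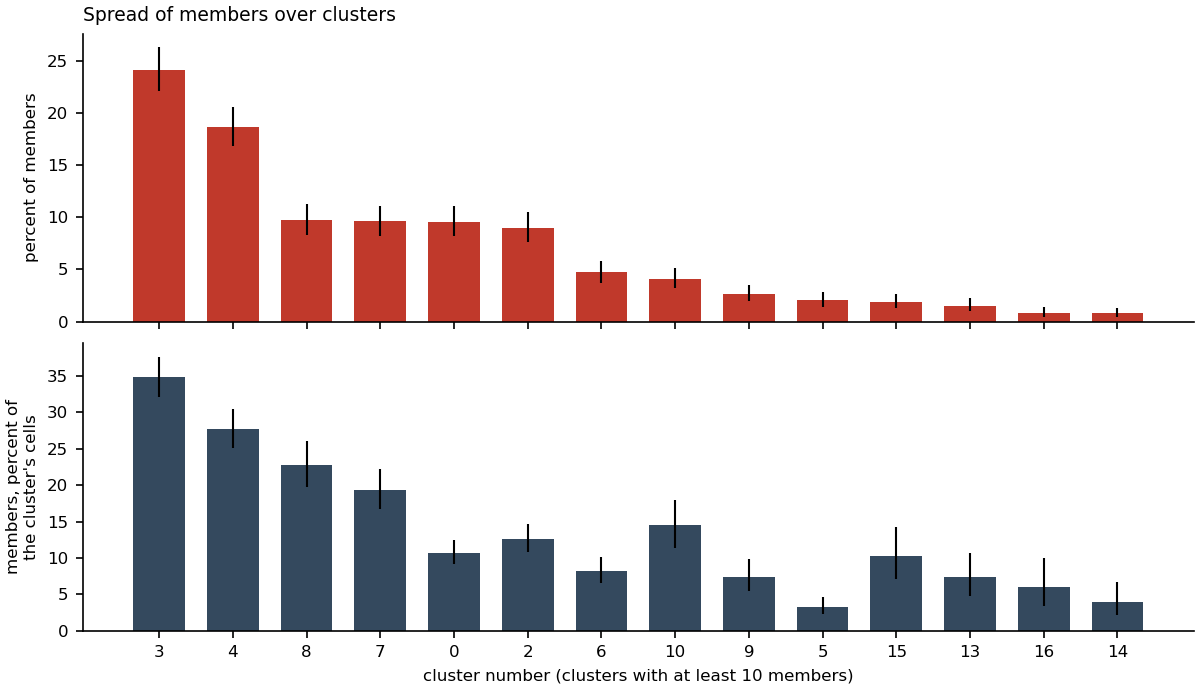
Upper bars give the percent of the Tnfrsf9/Angptl4 cells (members) in each sph/sph cluster with at least 10 of them, and lower bars the percent of that cluster's cells that they make up, with exact binomial 95% intervals. Cluster 3 has the tallest bars, with 24.1% of the selected cells, which are 34.8% of its cells.

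The clusters differed in which growth genes their cells carried. Over all cells of a cluster, Pgf was at 173 CPM in cluster 8, 55.2 CPM in cluster 4, 46.8 CPM in cluster 3 and 9.89 CPM in cluster 7. Ntrk2 was instead at 56.5 CPM in cluster 7, 33.7 CPM in clusters 3 and 4 and 0 in cluster 8. Apln was at 1080 CPM in cluster 8 and 66.7 CPM in cluster 7, whereas Vegfa was at 90.5 and 348 CPM in these 2. Esm1 was highest in cluster 4, at 227 CPM. These levels describe clusters that were made from the same genes.

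Much of the difference from the matched reference went with the cluster. Only the genes of the rule were kept out of the clustering, so clusters could be made from the genes compared here. Weighting by such clusters can by itself shrink the ratios of those genes, and it was run at resolution 1.0 only. When the matched reference was weighted to the selected cells' mix of 16 clusters, 21 of 6822 genes were at least 2-fold higher and 20 lower, against 67 and 198 without weighting. The log2 ratio then was 0.10 for Lamb1, 0.19 for Nid2, 0.52 for Vegfa and 0.84 for Apln, and 2.01 for Pgf, 1.54 for Ntrk2 and 1.17 for Adm. Slc2a1 stood at 1.18 and Hilpda at 1.15. The median of the tip cell list was 0.18, and the matrix genes Col4a1 and Sparcl1 stood at 0.05 and 0.37. In each of the 8 clusters with at least 50 selected cells, those cells were above the matched reference cells of the same cluster for Adm, Ankrd37, Angpt2, Hilpda, Slc2a1, Apln, Itgb3 and Gapdh. Vegfa was also higher in all 8, and so were genes of other lists, such as Icam2, Esam and Hspa8. Tie1 and Nrp1 were higher in 0. How many of all measured genes were higher in all 8 was not counted, so this is not particular to growth genes. Pgf was higher in 5 of the 8 and Ntrk2 in 6. In cluster 8, Pgf was at 224 CPM in selected cells and 39.4 CPM in matched reference cells. In cluster 3, Vegfa was at 454 and 372 CPM.

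Cells with high Aplnr, the apelin receptor of stalk-like capillaries, were compared as another growth-related class. The 535 Aplnr-high cells had at least 3 Aplnr UMIs, no Tnfrsf9 or Angptl4 UMI and met the other limits, at a median depth of 3784 UMIs. Among 6885 measured genes, 76 stood 2-fold or more above these in the Tnfrsf9/Angptl4 cells and 69 lower. The matrix genes were near-equal, with Col4a1 at a ratio of 1.04 (1.01 to 1.062), Nid2 at 1.21 (1.09 to 1.35) and Lamb1 at 1.29 (1.20 to 1.39), and so was Kdr at 1.03 (0.996 to 1.07). The ligand genes differed, with Pgf at 30.1-fold (11.7 to 111) and Vegfa at 5.56-fold (4.602 to 6.78). The receptor gene Ntrk2 was 40.0-fold (11.0 to 332) higher. Apln was 1.92-fold (1.78 to 2.06) and Adm 3.02-fold (2.64 to 3.46) higher. Igfbp3, which binds insulin-like growth factors, was 16.7-fold (8.39 to 38.9) higher, while Rspo3 had a log2 ratio of -3.40, Wnt2, a Wnt ligand, of -2.91 and the collagen gene Col15a1 of -2.51. Cluster 17, led by Rspo3 with Wnt2, held 17 of the Aplnr-high cells and 2 selected cells. Their part in the Rspo3 and Wnt2 ratios was not tested.

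In the sph/+ library, set side by side without a test, 12115 barcodes with Pecam1 or Cdh5 had Vegfa at 13.5 CPM, Apln at 0.68 CPM, Lamb1 at 0.95 CPM and Nid2 at 3.87 CPM. The Tnfrsf9/Angptl4 cells of sph/sph were above those levels for all 4 markers, and so were both sph/sph references. In sph/+ Col4a1 was at 583 CPM, beside 3905 CPM in the selected cells, and Adm at 38.5 and 328 CPM. Sinusoidal genes ran the other way, with Ehd3 at 4230 CPM in sph/+ and 27.4 CPM in the selected cells, Clec4g at 3645 and 13.9 CPM and Maf at 2625 and 17.0 CPM.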

How the data were processed

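Single-cell RNA of sorted liver endothelium was measured in 1 sph/sph and 1 sph/+ mouse. The deposited values are raw UMI counts per gene (31053 genes) and barcode, with no normalization. Cell Ranger 3.0 and the build mm10 are named per the submitters' processing notes, while the matrix files name software version 3.1.0, per the file headers. Which gene annotation was used is not given in the sources used here. Of 16386 sph/sph and 13136 sph/+ deposited barcodes, 13094 and 12304 passed the quality limits.

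Counts were summed over the cells of a set and scaled to CPM, and 1 CPM was added before log2 ratios. A gene was measured at 20 CPM or more in either set. Genes at least 2-fold apart, and list genes at least 1.5-fold apart, were counted, with no test. Intervals are exact Poisson (levels), Clopper-Pearson (shares) and exact binomial of the pooled count (ratios). The scripts were tested on simulated data. Scrublet's automatic threshold marked 0 barcodes and so did not work. No doublets were removed, except in an alternative that dropped the 1440 highest scores (11.0% of barcodes, 182 of the selected cells).

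Clusters used 2000 variable genes without the genes of the rule, 30 principal components, 15 exact neighbours and resolution 1.0. An earlier clustering with approximate neighbours placed the cells differently when numerical settings changed, so exact neighbours were used. The selected cells and the gene lists were chosen with earlier results of these data known. The text names the markers, the 15 highest and 10 lowest genes against each reference, list genes with the largest ratios, the highest and lowest genes in the other comparisons, and genes added after their values were seen. 1 of these genes is not reported here. No replicate could be left out, since each genotype had 1 mouse. Python 3.11.15, numpy 2.4.6, scipy 1.17.1, pandas 2.3.3, scanpy 1.11.5, leidenalg 0.10.2, igraph 0.11.9 and matplotlib 3.10.9 were used.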

Additional observations from a re-analysis of the deposited data

How the results depend on the processing

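The number of members (the selected cells) was 1508 with at most 10% mitochondrial UMIs, 1476 with the doublet scores removed, 2338 with at least 2 UMIs of Tnfrsf9 and Angptl4 and 867 with at least 5. The count of genes at least 2-fold higher, 114, became 72 at a floor of 50 CPM, 174 at 5 CPM, 69 with 10 CPM added, 64 with cells weighted equally, 70 at equal depth, 67 against the matched reference, 62 without Lyve1 or Prox1 cells and 21 with the reference weighted by cluster, which was chosen after seeing the data. The lower count, 348, became 183 at 50 CPM, 738 at 5 CPM, 198 matched, 203 without Lyve1 or Prox1 cells and 20 weighted by cluster. The share of cells in the largest cluster was 59.4% at resolution 0.5, 18.6% at 1.5, and 28.0%, 31.9%, 29.2% and 31.6% with seeds added after seeing the data. Over those seeds the cluster-weighted log2 ratio ran from 0.43 to 0.73 for Vegfa and from 1.62 to 2.43 for Pgf. No list median past 1.5-fold reversed, and 17 of 29 list medians kept 1 sign. Of 153 single genes, 121 kept 1 sign, counting only settings where the gene reached the CPM floor. Some genes lower than the reference turned below that floor under the cluster weighting and were not counted. These included Fn1 (15.9 against 13.8 CPM), Rspo3 (14.6 against 9.72), Fst (13.8 against 5.42) and Itgb4 (8.24 against 3.79). Among genes of the naming rule past 2-fold from the reference and at the floor, the sign turned for Dcn (1.99) without Lyve1 or Prox1 cells. Weighted by cluster, it turned for Dcn (0.36), Plod2 (-0.0335), Flt4 (0.10), Tnfrsf26 (-0.035), Timp2 (0.20), Adamts9 (-0.12), Unc5b (-0.14), Mgp (1.61) and Sprr2b (0.0143). With the cluster weighting, genes under 2-fold also turned, Kdr (-0.07), Nrp1 (-0.18), Jag2 (-0.29), Cd274 (-0.26), Ciita (-0.27) and Mmp15 (-0.12) among them, as did Vwf (0.97) and Nts (1.11). The cause was not tested. No paired analysis was possible because each genotype had 1 mouse.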

Other observations

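Cells with at least 3 UMIs of Tnfrsf9 and Angptl4 that the other limits kept out also carried growth genes. In the 477 over the arterial limit, Vegfa was at 329 CPM, Apln at 353 CPM and Ntrk2 at 39.4 CPM. In the 809 over the limit on Ccl2 and Cxcl10, Pgf was at 103 CPM and Adm at 334 CPM. Among the 413 over the Aplnr limit, Vegfa was at 131 CPM, Apln at 622 CPM and Lamb1 at 494 CPM. The 99 cells over the Lyve1 limit had Angpt2 at 523 CPM with Vegfa at 37.0 CPM and Apln at 102 CPM. The 262 over the limit on cycling genes had Apln at 564 CPM and Pgf at 50.9 CPM. A cell can be over more than 1 limit.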
